A study of Mus musculus with 4 samples.

Results

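The genes described here are the insulin-like growth factor (IGF) ligand gene Igf1, the receptor genes Igf1r and Insr and the IGF-binding protein genes Igfbp2 to Igfbp7, taken by symbol from a list drawn up with earlier results of these data known. They make 9 of the 26815 entries of the authors' deposited table, and 7 of the 9 were tested by the authors. RNA came from neural stem cells of the embryonic cortex (CD-1 mice, E14.5), obtained commercially and grown on poly-L-ornithine and laminin with EGF and bFGF. All cells carried a lentivirus and were expanded under 0.5 µg/mL puromycin. In 2 libraries the virus encoded a scrambled shRNA (SHC002), and in the other 2 it encoded a single shRNA against Foxp1 (pLKO.1_sh_ex15), with cultures of different passages as replicates. The deposited comparison sets a pooled condition coded q2 against one coded q1, and no label or header ties a code to an shRNA, so every direction below is q2 relative to q1. Values per library and expression levels were not used here, so the spread between replicates and the read depth behind each value are unknown. In bulk RNA, fewer cells of a type and less RNA per cell cannot be told apart.

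IGF signalling starts when a ligand binds the receptor tyrosine kinase encoded by Igf1r, or the related insulin receptor encoded by Insr, and docking proteins then pass the signal to PI3K, Akt and the mTOR kinase. Secreted IGF-binding proteins hold ligand in the extracellular fluid and can block or prolong its action, and proteases free the ligand by cutting them. In the embryonic cortex this pathway is known for driving growth, division and survival of neural progenitors, and neural stem cell media usually contain insulin, which engages both receptors at high dose. Foxp1, the forkhead transcription factor targeted by the shRNA, was 4.09-fold lower in q2 per the authors' deposited table (log2 change -2.03, Cuffdiff q = 0.00162).

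Genes were called at a q, the authors' adjusted p-value, under 0.05. Igf1r was the single member called, and it was higher in q2. None of the 6 binding protein genes was called by Cuffdiff, 2 of the 5 tested had an unadjusted p under 0.05, and both of these had positive fold changes. The share called over all 15315 tested entries of the authors' deposited table was 7.63%, with 4.24% higher and 3.39% lower in q2. Against that background 1 of 7 tested members was called, 1 higher and 0 lower, and 3 of 7 had an unadjusted p under 0.05, against 19.2% of all tested entries. All 3 had positive fold changes, so 3 of 7 were positive at that p, against 9.46% of all tested entries. The median log2 fold change of the 7 was 0.48 per the authors' deposited table, beside -0.05 over all tested entries. A positive fold change stood in 6 of the 7, against 45.7% of all tested entries. Among these 6, however, Insr, Igfbp5 and Igfbp7 had statistics of only 0.33, 0.20 and 0.24. The median is the value of Igfbp4, which was at 0.29 with a trend of fold change with transcript GC content removed.

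**Figure D1:**
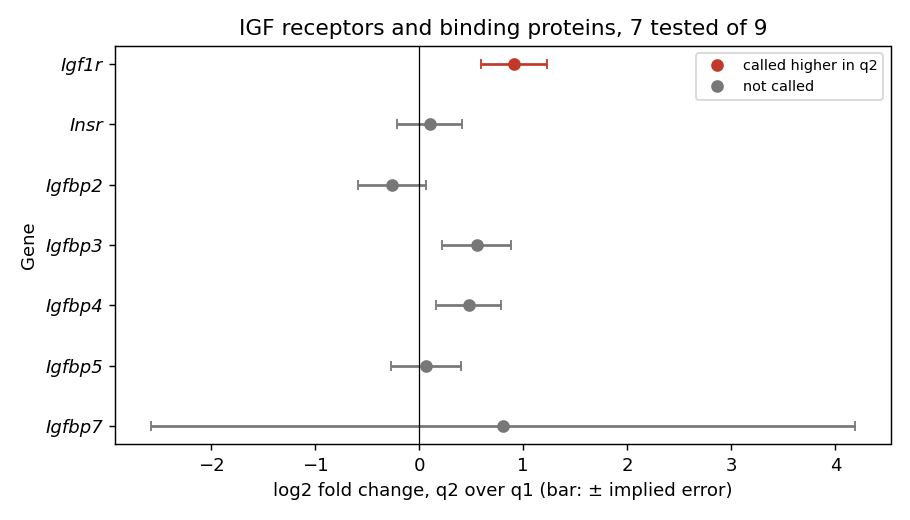
Log2 change from q1 to q2 per the authors' deposited table on the x axis, for the 7 tested genes on the y axis; bars show the error implied by the authors' test statistic. Igf1r, in red, is the single gene called; Igfbp2 alone lies below 0, and the bar of Igfbp7 runs far past those of the others.

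Igf1, the ligand gene (chromosome 10, 87859056 to 87937047, GRCm38), was not tested by the authors, so no ligand transcript among the members gives a comparison. GENCODE M21 places an antisense gene, Igf1os, in the same locus.

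Igf1r (chromosome 7, 67952257 to 68233667, GRCm38) encodes the main receptor for IGF ligands. It was 1.88-fold higher in q2 per the authors' deposited table, with a log2 fold change of 0.91 and an error of 0.31, as implied by dividing that value by the authors' statistic (statistic 2.92, Cuffdiff q = 0.00162). Of all tested entries, 3.55% had a larger absolute statistic per the authors' deposited table. Its p of 5e-05 is the smallest of the authors' deposited table, where 472 entries share it, so its q does not rank it among them. The call did not hold with p taken from a normal distribution for the deposited statistic (Benjamini-Hochberg q = 0.0995), nor with a minimum absolute log2 fold change of 1. It held once a trend of fold change with transcript GC content was removed over the 12020 tested single-symbol genes with a known GC content, at a log2 fold change of 0.99 (recomputed q = 0.00149, read from the authors' statistic). No other GENCODE gene overlaps the Igf1r locus.

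Insr (chromosome 8, 3150922 to 3279617, GRCm38), the insulin receptor gene and closest relative of Igf1r among the members, had a log2 fold change of 0.10 per the authors' deposited table (implied error 0.31, Cuffdiff q = 0.869). The errors of both receptor genes were nearly equal, so the test was about as sensitive for Insr as for Igf1r. At the error of Insr, an absolute log2 fold change of about 0.43 would have given an unadjusted p of 0.05, and the value of Insr per the authors' deposited table lay below that. The difference between Igf1r and Insr was itself not tested. GENCODE lists an antisense gene, Gm16180, within the Insr locus, and the use of strand in counting is not given in the sources used here.

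Promoter windows are shown for Igf1r, for the 2 binding protein genes with an unadjusted p under 0.05 and for Igfbp2. Igfbp2 was the only tested member with a negative fold change. Only Igf1r was called among these genes, and differences between members were not tested. Each window runs from 250 bases before to 50 bases after the RefSeq transcription start, on the gene's own strand of GRCm38.p6, 5′ to 3′. Capitals mark the GC box GGGCGG on either strand and TATAAA on the gene's strand. The windows lie at chr7:67952007-67952306 for Igf1r (plus strand), chr1:72824230-72824529 for Igfbp2 (plus), chr11:7213874-7214173 for Igfbp3 (minus) and chr11:99040994-99041293 for Igfbp4 (plus).
Igf1r: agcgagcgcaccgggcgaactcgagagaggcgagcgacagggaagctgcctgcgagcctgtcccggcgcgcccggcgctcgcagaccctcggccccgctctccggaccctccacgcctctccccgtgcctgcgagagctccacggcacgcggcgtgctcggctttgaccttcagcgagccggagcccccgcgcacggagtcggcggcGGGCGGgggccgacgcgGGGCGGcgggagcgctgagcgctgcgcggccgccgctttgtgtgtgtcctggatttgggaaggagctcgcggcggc
Igfbp2: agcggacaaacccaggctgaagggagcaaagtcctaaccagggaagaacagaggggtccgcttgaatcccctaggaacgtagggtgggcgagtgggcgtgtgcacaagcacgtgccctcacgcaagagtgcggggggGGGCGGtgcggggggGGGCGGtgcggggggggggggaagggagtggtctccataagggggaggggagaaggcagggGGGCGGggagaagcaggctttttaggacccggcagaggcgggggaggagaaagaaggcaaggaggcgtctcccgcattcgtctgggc
Igfbp3: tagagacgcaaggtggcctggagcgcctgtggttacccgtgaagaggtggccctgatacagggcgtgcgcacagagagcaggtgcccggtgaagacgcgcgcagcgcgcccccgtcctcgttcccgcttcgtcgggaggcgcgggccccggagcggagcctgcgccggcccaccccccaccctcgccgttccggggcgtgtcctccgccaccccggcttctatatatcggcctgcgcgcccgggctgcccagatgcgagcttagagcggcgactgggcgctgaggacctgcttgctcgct
Igfbp4: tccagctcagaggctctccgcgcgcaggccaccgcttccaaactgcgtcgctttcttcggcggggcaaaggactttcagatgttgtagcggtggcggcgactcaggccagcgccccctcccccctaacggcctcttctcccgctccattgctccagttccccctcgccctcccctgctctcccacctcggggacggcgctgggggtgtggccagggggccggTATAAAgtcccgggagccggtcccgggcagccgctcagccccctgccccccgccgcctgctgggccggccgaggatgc
The start in the Igf1r window, 67952257, is also the first base of the authors' locus. Among the 9 RefSeq windows of the members, that of Igf1r held the most CpG, with 48 and a GC content of 76.0%, against medians of 7 and 52.7% over 32851 mouse promoter windows. Igfbp3 had 37 CpG at 71.7% GC, Igfbp4 27 at 71.3% and Igfbp2 18 at 67.0%. Among tested members whose windows are not shown, Igfbp7 had 33 at 73.3% and Igfbp5 10 at 56.3%. Their log2 fold changes were 0.81 and 0.07 per the authors' deposited table, neither called. A relation of CpG or GC content to fold change was not tested. GGGCGG occurred 2 times in the Igf1r window 3 times in that of Igfbp2 and 4 times in that of Igfbp7, and 35.7% of all windows hold it at least 1 time. TATAAA occurred 1 time, in the Igfbp4 window, against 8.32% of all windows. The forkhead core motifs TGTTTAC and TGTTTGC, searched on both strands with no overlap between them, were in 0 of the 9 windows, which cover 8 members, while 8.48% of all windows hold at least 1 of them. These letters are absent from these windows, which says nothing of binding elsewhere.

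Among the binding proteins, Igfbp3 and Igfbp4 had the largest statistics. Igfbp3 (chromosome 11, 7206091 to 7213923, GRCm38) encodes the main IGF carrier of blood and is also known as a target of p53. Its log2 fold change was 0.55 per the authors' deposited table (implied error 0.33, unadjusted p = 0.0164, Cuffdiff q = 0.134). Igfbp4 (chromosome 11, 99041260 to 99052643, GRCm38) encodes a mostly inhibitory binding protein that the protease PAPP-A cuts. It stood at 0.48 per the authors' deposited table (implied error 0.31, unadjusted p = 0.0293, Cuffdiff q = 0.19). Neither passed the adjustment over all tested entries. With the GC trend removed Igfbp3 was at 0.49 and Igfbp4 at 0.29.

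Igfbp2 and Igfbp5 lie 5.59 kb apart on chromosome 1 per the authors' deposited table and point toward each other, with Igfbp2 on the plus and Igfbp5 on the minus strand. Igfbp2 (72824480 to 72852471, GRCm38) is a binding protein gene of the neural tube and neural progenitors, and its log2 fold change was -0.26 per the authors' deposited table (implied error 0.33, Cuffdiff q = 0.581). With the GC trend removed its value moved to -0.50 and was still not called. Igfbp5 (72858065 to 72874865, GRCm38), whose protein also binds extracellular matrix, was at 0.07 per the authors' deposited table (implied error 0.33, Cuffdiff q = 0.925). Neither gene was called, and the fold changes of these neighbours had opposite signs. Igfbp1 and Igfbp3 form the other close pair, 3.55 kb apart on chromosome 11, but Igfbp1 was not tested by the authors.

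Igfbp6 (chromosome 15, 102144186 to 102149512, GRCm38) was not tested by the authors. Igfbp7, which encodes a matrix-bound relative with weak affinity for IGF, had a log2 fold change of 0.81 per the authors' deposited table, close to that of Igf1r. Its implied error was 3.39, larger than that of 99.0% of tested entries, and its Cuffdiff q was 0.927. At that error a log2 fold change of 4.70 would have been needed for an unadjusted p of 0.05, so a change of the size seen in Igf1r was not detectable. Igfbp7 shares its locus in the authors' deposited table (chromosome 5, 77310484 to 77408045, GRCm38) with Polr2b, a gene for an RNA polymerase II subunit that GENCODE places on the opposite strand. Polr2b was at -0.25 with an implied error of 0.31 per the authors' deposited table. The part of this shared locus in the large error of Igfbp7 was not tested.

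**Figure D2:**
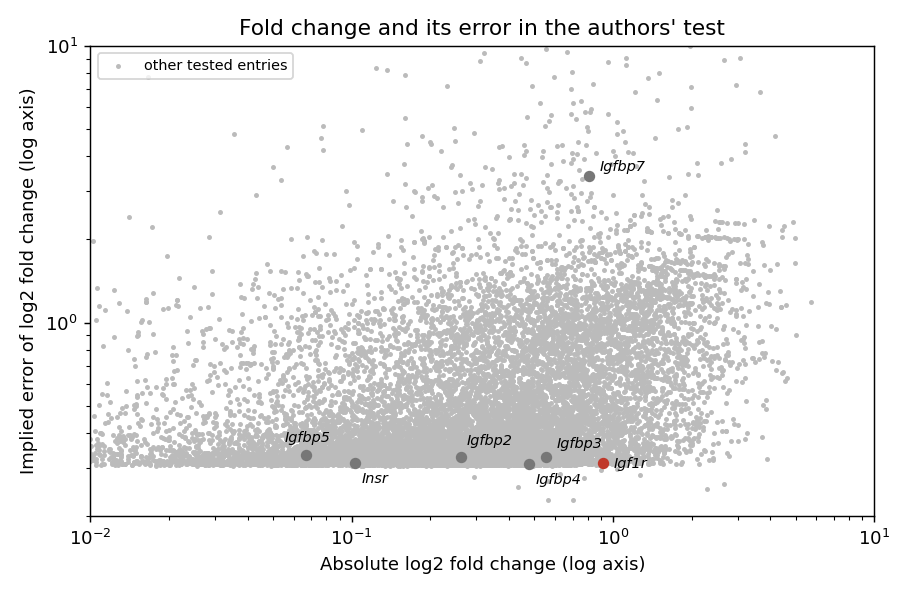
Absolute log2 fold change (x axis, log scale) against the error implied by the authors' statistic (y axis, log scale). Grey points are tested entries of the authors' deposited table with a finite statistic, the red point is Igf1r and the dark points are the members not called; 6 members lie at errors of 0.31 to 0.33, near the dense lower edge of all entries, and Igfbp7 at 3.39; 326 of 15197 entries fall outside the axes.

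Of 30 genes taken as the nearest tested neighbours, up to 2 on each side, 6 were called, against 7.63% of all tested entries. Neighbours were single-symbol entries only, of which 9.56% were called with q readjusted over them. Nr2f2 and Tenc1 kept their calls with p from a normal distribution while Adcy1, Rara, Rpl37a and Tns3 did not. Near Igf1r, the orphan nuclear receptor gene Nr2f2 was called lower in q2, with a log2 fold change of -2.44 per the authors' deposited table (Cuffdiff q = 0.00918), at a gap of 2118 kb. Arrdc4, the nearer gene on that side, was at -0.98 (q = 0.0725, or 0.0435 with the GC trend removed), and Lrrc28 and Ttc23 on the other side were at -0.47 and -0.21 per the authors' deposited table, none of them called by Cuffdiff. All 4 neighbours of Igf1r had negative values, only Nr2f2 was called, and 45.7% of all tested entries had positive values.

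Adcy1, an adenylate cyclase gene 27.6 kb before Igfbp3, was called higher in q2 at 0.98 per the authors' deposited table (Cuffdiff q = 0.00162). Rara, a retinoic acid receptor gene 66.3 kb before Igfbp4, was called higher at 1.13 per the authors' deposited table (Cuffdiff q = 0.0142), while Top2a between them was at -0.32 and not called. With the GC trend removed Rara was at 0.86 and no longer called (recomputed q = 0.0939). Rpl37a, a ribosomal protein gene before Igfbp2, was called lower at -0.80 per the authors' deposited table (Cuffdiff q = 0.00527).

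Among these neighbours were 3 tensin genes, whose proteins tie integrins to actin. Tns3, the next tested gene after Igfbp3 at a gap of 1218 kb, was called higher at 0.71 per the authors' deposited table (Cuffdiff q = 0.0274), and Tenc1, 27.8 kb before the untested Igfbp6, was called higher at 1.56 (Cuffdiff q = 0.00162). Tns1, 1035 kb after Igfbp5 with 6030407O03Rik nearer, was at -0.68 per the authors' deposited table and not called (Cuffdiff q = 0.138), but passed at -0.93 with the GC trend removed (recomputed q = 0.0235).

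Genes that act with the members were taken from 7 lists of the IGF pathway, which hold 93 genes that are no members. Of these 73 were tested per the authors' deposited table, and 12 were called higher and 8 lower in q2. These were 16.4% and 11.0% of those tested, beside 4.24% and 3.39% of all tested entries. The lists took single-symbol entries only, and 9.56% of all 12159 tested single-symbol entries were called with q readjusted over them. The lists were also chosen with earlier results of these data known, so their shares are not independent of those results. The median log2 fold change of the 73 was 0.02 per the authors' deposited table, and 37 of 73 were positive, so values lay on both sides of 0. With p from a normal distribution for the deposited statistic 7 of the 20 calls were kept, those of Irs2, Grb14, Socs2, Cd93, Col4a1, Fn1 and Itgav, and 13 were lost.

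Below the receptors, of 16 tested adaptor and PI3K-Akt genes 3 were called higher and 2 lower, beside 4.24% and 3.39% of all tested entries. The median log2 fold change of the 16 was -0.05 per the authors' deposited table. Irs2 and Irs1, which encode the insulin receptor substrates that both receptors phosphorylate, were 2.22-fold and 1.68-fold higher in q2 per the authors' deposited table (log2 changes 1.15 and 0.75, Cuffdiff q = 0.00162 and 0.0195). Shc1, the adaptor that leads from the receptors to Ras, was 1.99-fold higher per the authors' deposited table (log2 change 0.99, Cuffdiff q = 0.00162). Sos2, a Ras exchange factor, was 1.75-fold lower and Pik3r3, a regulatory subunit of PI3K, 1.58-fold lower per the authors' deposited table (Cuffdiff q = 0.0118 and 0.0453). Both lost their calls with the GC trend removed, at -0.56 and -0.54, and the calls of Irs1, Irs2 and Shc1 held there. Downstream of these, Akt1 and Akt2 were at 0.15 and 0.16 per the authors' deposited table, and Pik3ca at -0.31, none of them called.

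Genes that restrain the receptors went both ways. Of 10 tested, 2 were called higher and 1 lower, beside 4.24% and 3.39% of all tested entries. The median of the 10 was 0.02 per the authors' deposited table. Grb14, whose protein binds the activated insulin receptor and inhibits it, was 3.30-fold higher in q2 per the authors' deposited table (log2 change 1.72, Cuffdiff q = 0.00162). Sh2b3, a negative adaptor of cytokine and growth factor receptors, was 2.01-fold higher per the authors' deposited table (log2 change 1.01), and with the GC trend removed it was at 0.67 and no longer called (recomputed q = 0.101). Socs2, an inhibitor of growth hormone and IGF signalling, was 2.84-fold lower in q2 per the authors' deposited table (log2 change -1.51, Cuffdiff q = 0.00162).

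In the mTOR arm 1 of 13 tested genes was called higher and 0 lower, near the 7.63% called over all tested entries. The called gene was Eif4ebp1, a repressor of translation that mTOR phosphorylates, at 0.84 per the authors' deposited table (Cuffdiff q = 0.018). Rictor and Rps6kb1 followed by size of statistic at -0.51 and -0.45 per the authors' deposited table and were not called. The transcription factors Foxo1 and Foxo3, which Akt keeps out of the nucleus, were at 0.49 and 0.46 per the authors' deposited table, also not called. Of 17 tested FoxO factors and targets 1 was called higher, Irs2 again, and 1 lower, the cyclin gene Ccng2 at -0.80 per the authors' deposited table (Cuffdiff q = 0.0157), which was at -0.64 and no longer called with the GC trend removed (recomputed q = 0.0882). Over all tested entries 4.24% were called higher and 3.39% lower. The median of the FoxO list was -0.08 per the authors' deposited table.

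Around the binding proteins, 1 of 5 other tested genes of the IGF axis was called higher and 1 lower. The shares over all tested entries were 4.24% and 3.39%. Igfbpl1, a binding-protein-like gene, was 2.48-fold higher in q2 per the authors' deposited table (log2 change 1.31, Cuffdiff q = 0.00418). Htra1, a secreted serine protease that carries a binding-protein domain and cuts binding proteins, was 1.96-fold lower per the authors' deposited table (log2 change -0.97, Cuffdiff q = 0.00162). The PAPP-A inhibitor genes Stc1 and Stc2 were at 0.45 and -0.03 per the authors' deposited table and not called, and the protease genes Pappa and Pappa2 were not tested.

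Of 6 tested genes with a binding-protein domain 2 were called higher and 2 lower, beside 4.24% and 3.39% of all tested entries. Igfbpl1 and Htra1 were counted here too. The other two were Ctgf, a matricellular growth factor gene, 3.08-fold higher in q2 per the authors' deposited table (Cuffdiff q = 0.0424), and the protease gene Htra3, 2.03-fold lower (Cuffdiff q = 0.0402). When the median of all tested entries was set to 0, which raised all values by 0.05, Htra3 went from -1.02 to -0.97 and was no longer called (recomputed q = 0.0528).

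Of the partners that binding proteins contact at the cell surface and in the matrix, 4 of 9 tested were called higher and 2 lower. The shares over all tested entries were 4.24% and 3.39%. Cd93, a receptor of Igfbp7, was 4.29-fold higher and Col4a1, a basement membrane collagen gene, 4.51-fold higher in q2 per the authors' deposited table (Cuffdiff q = 0.00162 for both). Fibronectin, encoded by Fn1, was 3.44-fold higher and its integrin subunit gene Itga5 2.24-fold higher per the authors' deposited table (Cuffdiff q = 0.00162 for both). The integrin subunit gene Itgav was 3.52-fold lower and the receptor phosphatase gene Ptprz1 1.74-fold lower per the authors' deposited table (Cuffdiff q = 0.00162 and 0.0373). With the GC trend removed Ptprz1 went from a log2 change of -0.80 to -0.48 and lost its call (recomputed q = 0.349), and the other 5 kept theirs. Tmem219, an Igfbp3 receptor gene, was at 0.27 and Lrp1 at 0.02 per the authors' deposited table, neither called.

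**Figure D3:**
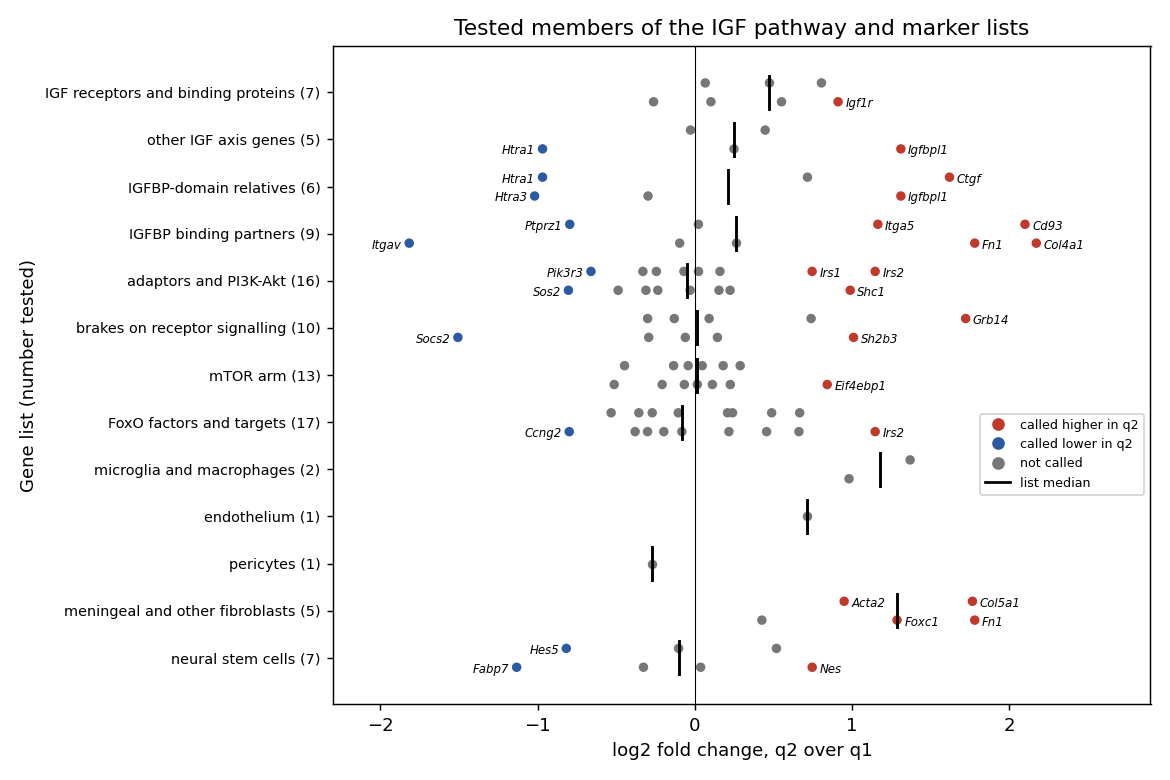
Log2 change from q1 to q2 per the authors' deposited table on the x axis, for the tested genes of each list on the y axis (number tested in parentheses), with calls higher in red, calls lower in blue, other genes in grey and list medians as black bars. The IGF receptors and binding proteins have their median at 0.48; called genes of the adaptor list lie on both sides of 0.

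Binding proteins are also made by cells other than neural stem cells, and markers of such cells were read from the same comparison. The markers were chosen with earlier results of these data known, so their counts are not independent of those results. Of 9 fibroblast and meningeal markers 5 were tested, with a median of 1.29 per the authors' deposited table. Of these, 4 were called higher in q2, namely Fn1, Col5a1, Foxc1 and Acta2, against 4.24% of all tested entries. The other, Col1a1, was at 0.43 per the authors' deposited table and not called, and Col1a2, Col3a1, Dcn and Lum were not tested. Fn1 was also counted among the partners. Acta2 lost its call with p from a normal distribution (Benjamini-Hochberg q = 0.0813). At a log2 fold change of 0.95, Acta2 also lost it with a minimum absolute log2 fold change of 1. Markers of microglia, a known source of Igf1, were tested in 2 of 7 cases, those of endothelium in 1 of 6 and those of pericytes in 1 of 5, and Cuffdiff called 0 of these 4, of which 0 had an unadjusted p under 0.05. Over all tested entries 7.63% were called. The 4 markers were P2ry12 at 1.37, Cd68 at 0.98, Kdr at 0.71 and Cspg4 at -0.27 per the authors' deposited table. The implied errors of P2ry12 and Cd68 were 2.62 and 0.94, so a change of the size of Igf1r could not have passed in either. Those of Kdr and Cspg4 were 0.54 and 0.31, beside 0.31 for Igf1r. At the error of Kdr, a change of the size of Igf1r would have a statistic below the 1.69 of Igfbp3. Igfbp3 was not called, so such a change would have fallen short of a call in Kdr too. All 7 neural stem cell markers were tested: Nes, which was at 0.60 and no longer called with the GC trend removed (recomputed q = 0.0902), was called higher at 0.75 and Fabp7 and Hes5 lower at -1.13 and -0.82 per the authors' deposited table, and Sox2 and Pax6 were at 0.04 and -0.10. The part of other cell types in the value of Igf1r was not tested.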

How the data were processed

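RNA was measured in 4 libraries, 2 with a scrambled shRNA and 2 with a Foxp1 shRNA, grouped by sample title. Per the labels' protocols, poly(A) RNA was purified for SOLiD Total RNA-Seq libraries. The submitters' processing notes name the tools TopHat2 2.0.9, Cuffdiff and Cufflinks 2.2.1 and build mm10 (GRCm38). Not given in the sources used here are annotation, filters and strand use. The authors deposited 1 table that, per the file headers, gives log2 fold changes for q2 over q1. The test statistic is the authors' score for that contrast, and p-values and q-values were taken as the authors deposited them. 2 columns of expression values match no labelled group and were not used. Replicates are different passages per the labels; which spread enters the p-values is not known, nor is read depth.

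A gene was called at q under 0.05 over 15315 tested entries. The implied error is the log2 fold change divided by the statistic. An absolute statistic of 1.39 corresponded to a deposited p of 0.05, against 1.96 for a normal distribution. The design had foreseen protein features, which were not analysed here. Neighbours, 12 lists with 130 entries, and named genes followed fixed rules: all members, all neighbours, and per list up to 6 called genes by statistic, or up to 2 others where fewer than 2 were called; other listed genes were chosen after their values were seen. Some listed genes are not reported here. Members and lists were chosen with earlier results of these data known, and several partner and marker genes appear in those results. Alternatives were 8 settings fixed at the outset and 1 added after seeing the data, in which p was read from the deposited statistic, as it was for centring and trend removal. GC content and length came from GENCODE M21 for 12020 of 12090 tested single-symbol genes with a finite fold change and statistic (99.4%). Over these 12020, trends were removed in 50 bins and q was then readjusted. TATAAA and GGGCGG were added to the motif search after seeing the data. The procedure was tested on simulated data. The simulated statistics were drawn from the deposited relation of statistic to p, so that relation itself could not be checked. Python 3.11.15, numpy 2.4.6, pandas 2.3.3, scipy 1.17.1 and matplotlib 3.10.9 were used.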

Additional observations from a re-analysis of the deposited data

How the results depend on the processing

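No paired analysis was possible because the deposited table holds no value per library, and no replicate could be left out for the same reason. Only 3 of the 9 alternatives alter fold changes (centring and taking out the trend with GC content or length), and none of these 3 turned the sign of a tested member; the call of Igf1r was lost in 2 of the 9. The number of members called higher was 0 with a minimum absolute log2 fold change of 1 and 0 with p from a normal distribution, under which 2.8% of all tested entries were called in place of 7.63%. With the normal p, the counts higher fell to 0 for the other IGF axis genes, binding-protein-domain genes, mTOR arm and neural stem cell markers. They fell to 1 for the adaptors and the brakes and to 3 for the partners and the fibroblast markers. The counts lower fell to 0 for the other IGF axis genes, binding-protein-domain genes, adaptors and FoxO list. They fell to 1 for the partners and the neural stem cell markers. With q under 0.01, binding-protein-domain genes were called 1 higher and 1 lower, partners 1 lower and adaptors 2 higher and 0 lower. At this q the mTOR arm had 0 higher, the FoxO list 0 lower and neural stem cell markers 0 higher and 1 lower. With the minimum fold change, the other IGF axis genes gave 0 lower and binding-protein-domain genes and partners 1 lower. Under the same rule adaptors had 1 higher and 0 lower, the mTOR arm 0 higher and the FoxO list 0 lower. Fibroblast markers then had 3 higher, and neural stem cell markers 0 higher and 1 lower. Centring left 1 lower call each among the binding-protein-domain genes, partners and adaptors. With the GC trend removed, partners had 1 lower, adaptors 0 lower, brakes 1 higher, the FoxO list 0 lower and neural stem cell markers 0 higher, and with the length trend removed partners and adaptors had 1 lower each. Over all tested entries the calls numbered 1168, against 667 at q under 0.01, 687 with the minimum fold change and 425 with the normal p. Calls higher made up 649 of 1168, 735 of 1368 with p read from the statistic, and 803 of 1340 with centring added to that. Of the neighbours, Parpbp was at 0.13 and Tbrg4 at -0.0081 with the GC trend removed, and Arhgef18 at 0.045 after centring and 0.086 with the length trend removed, each with its sign turned and no call in any of these settings. For lost calls whose setting is not a stricter rule by construction, the cause was not tested.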

Other observations

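The genes for the RNA-binding proteins that share the IGF name, chosen after their values were seen, regulate the stability and translation of growth-related mRNAs in fetal tissue and bind no IGF protein. Igf2bp2, known in neural progenitors, was 2.75-fold higher in q2 per the authors' deposited table (log2 change 1.46, Cuffdiff q = 0.00162). Igf2bp3 was at 1.26 per the authors' deposited table and not called (Cuffdiff q = 0.0526), and its q was 0.0289 with p read from the authors' statistic. Igf2bp1 was not tested by the authors.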
